A study of Mus musculus with 23 samples.

Results

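The genes described here are 9 markers of homeostatic microglia, the resident macrophages of the healthy brain: P2ry12, P2ry13, Tmem119, Cx3cr1, Sall1, Csf1r, Siglech, Gpr34 and Olfml3. They were chosen by name from knowledge of microglia, and each symbol matched 1 of the 54232 gene identifiers in the count tables. The 23 libraries, in 7 groups, were made from poly(A) RNA of the hippocampus of C57BL/6 mice. At 9 months there were 4 libraries each of PS19 mice heterozygous for Lsd1 (labelled PS19;Lsd1Δ/+, here PS19 Lsd1 heterozygotes), of PS19 mice and of wild-type mice (WT), and 2 of Lsd1Δ/+ mice without the transgene (Lsd1 heterozygotes). At 11 months there were 3 libraries each of PS19 mice given a virus expressing LSD1 (PS19_rescue), PS19 mice given a control HA virus (PS19_HA) and wild-type mice given the HA virus (WT_HA). PS19 mice carry a P301S tau transgene, which is driven by the prion protein promoter and so is not limited to 1 cell type of the hippocampus. All 3 groups at 11 months had an adeno-associated virus, specific to neurons, injected into the hippocampus, so none of them is an untreated control. LSD1, encoded by Kdm1a, is a histone demethylase. The labels do not state that libraries of a group came from separate animals, so a p-value sets a difference against a spread between libraries that may be technical.

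Microglia depend on signalling through the CSF1 receptor, and TGF-beta and the transcription factor Sall1 keep them in their homeostatic state. In that state they carry sensors for nucleotides, chemokines and lipids on the surface, which guide their processes to damaged cells. Microglia at sites of neurodegeneration are known to lower several of these sensors while turning on a second programme, often called disease-associated, that includes Clec7a, Itgax and Cst7. In bulk RNA, more cells of a type and more RNA per cell cannot be told apart.

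By position the genes are scattered, apart from P2ry12 and P2ry13, and Olfml3 lies far from them on the same chromosome (chr3:103722222-103738001). In GRCm38, P2ry12 lies at chr3:59216272-59262871 and P2ry13 at chr3:59207892-59210882, both on the minus strand and next to each other inside the Med12l gene, which lies on the other strand and shares 9 exonic bases with P2ry12. Promoter sequences were taken from RefSeq on GRCm38.p6, as 250 bases before and 50 after the annotated start, for 6 of the 9 genes. Those of 3 genes are shown because P2ry12 and P2ry13 are neighbours, while Siglech, on another chromosome, had the level most like that of P2ry13 among the 9. With all libraries the tau differences of P2ry12 and P2ry13 had opposite signs, but the sign of P2ry12 did not hold across fits, as given below. Capitals mark GAGGAA or its reverse complement TTCCTC, a sequence that can be bound by PU.1, the macrophage transcription factor encoded by Spi1. Only exact copies of these letters are marked. Shorter or variant sites, such as the GGAA runs in the P2ry12 window, were not counted.
P2ry12, chr3:59262936-59263235, minus strand: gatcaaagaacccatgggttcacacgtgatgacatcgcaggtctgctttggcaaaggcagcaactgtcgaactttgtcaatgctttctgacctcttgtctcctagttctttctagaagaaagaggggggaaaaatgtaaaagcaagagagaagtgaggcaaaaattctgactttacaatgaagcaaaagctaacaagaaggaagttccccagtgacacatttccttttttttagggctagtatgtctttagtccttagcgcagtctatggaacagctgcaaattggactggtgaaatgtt
P2ry13, chr3:59210833-59211132, minus strand: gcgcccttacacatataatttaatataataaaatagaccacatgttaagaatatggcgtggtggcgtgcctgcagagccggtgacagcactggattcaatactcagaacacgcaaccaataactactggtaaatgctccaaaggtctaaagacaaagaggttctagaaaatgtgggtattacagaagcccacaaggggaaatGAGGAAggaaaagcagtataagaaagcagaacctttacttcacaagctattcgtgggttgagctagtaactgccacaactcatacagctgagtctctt
Siglech, chr7:55767934-55768233, plus strand: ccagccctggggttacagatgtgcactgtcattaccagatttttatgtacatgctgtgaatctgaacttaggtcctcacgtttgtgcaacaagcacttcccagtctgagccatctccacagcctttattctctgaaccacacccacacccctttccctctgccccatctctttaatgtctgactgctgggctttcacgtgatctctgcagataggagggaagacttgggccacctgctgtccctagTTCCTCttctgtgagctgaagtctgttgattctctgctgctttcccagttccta
The P2ry13 and Siglech windows held 1 match each and the P2ry12 window none, as did the windows of Cx3cr1, Sall1 and Olfml3. Across all 32851 promoters of the table, 28.3% held at least 1 match on either strand. A match is a run of letters in a window and not a measured binding site, and its part in the levels was not tested. The P2ry12 window, whose lowest base is 59262936, lies wholly before the gene start in the coordinates given above (59262871), because RefSeq places the start elsewhere.

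Library totals ran from 15451494 to 24644977 counted reads, and the 9 genes had between 32 counts (Tmem119 in WT replicate 3) and 5020 counts (Csf1r) per library. All 9 passed the filter on low counts in both cohorts. Levels are given as CPM, counts scaled to a common library size, after TMM normalization over the 23 libraries. The share of counts in mitochondrial genes was 16.1% for PS19 replicate 3, 33.9% for WT replicate 3 and 16.2% for WT_HA replicate 2, and 2.86% to 6.04% elsewhere. Values that moved by over 1.5 times without these 3 libraries are given without them as well for the tau comparisons and for PS19 Lsd1 heterozygotes and PS19_rescue against their wild-type groups. On the first principal component of the 9-month libraries, those numbered 3 or 4 were separate from those numbered 1 or 2. The labels do not say what these numbers mean. By sex-linked genes all 14 libraries at 9 months were male-type, while 6 at 11 months were female-type and 3 male-type. Prnp, whose promoter drives the transgene, averaged 1647 ± 134 CPM in PS19 and 777 ± 134 CPM in WT (SD, n = 4 each). Kdm1a averaged 5163 ± 4927 CPM in PS19_rescue, 61.8 ± 1.31 CPM in PS19_HA and 63.7 ± 2.88 CPM in WT_HA (SD, n = 3 each). It averaged 35.9 ± 0.749 CPM in Lsd1 heterozygotes (SD, n = 2) and 43.1 ± 10.1 CPM in PS19 Lsd1 heterozygotes, against 55.8 ± 4.84 CPM in WT (SD, n = 4 each). The library labelled PS19 Lsd1 heterozygote replicate 3 reached 56.5 CPM, the WT level. The median log2 difference over all genes lay between -0.02 and 0.02 in every comparison.

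**Figure D1:**
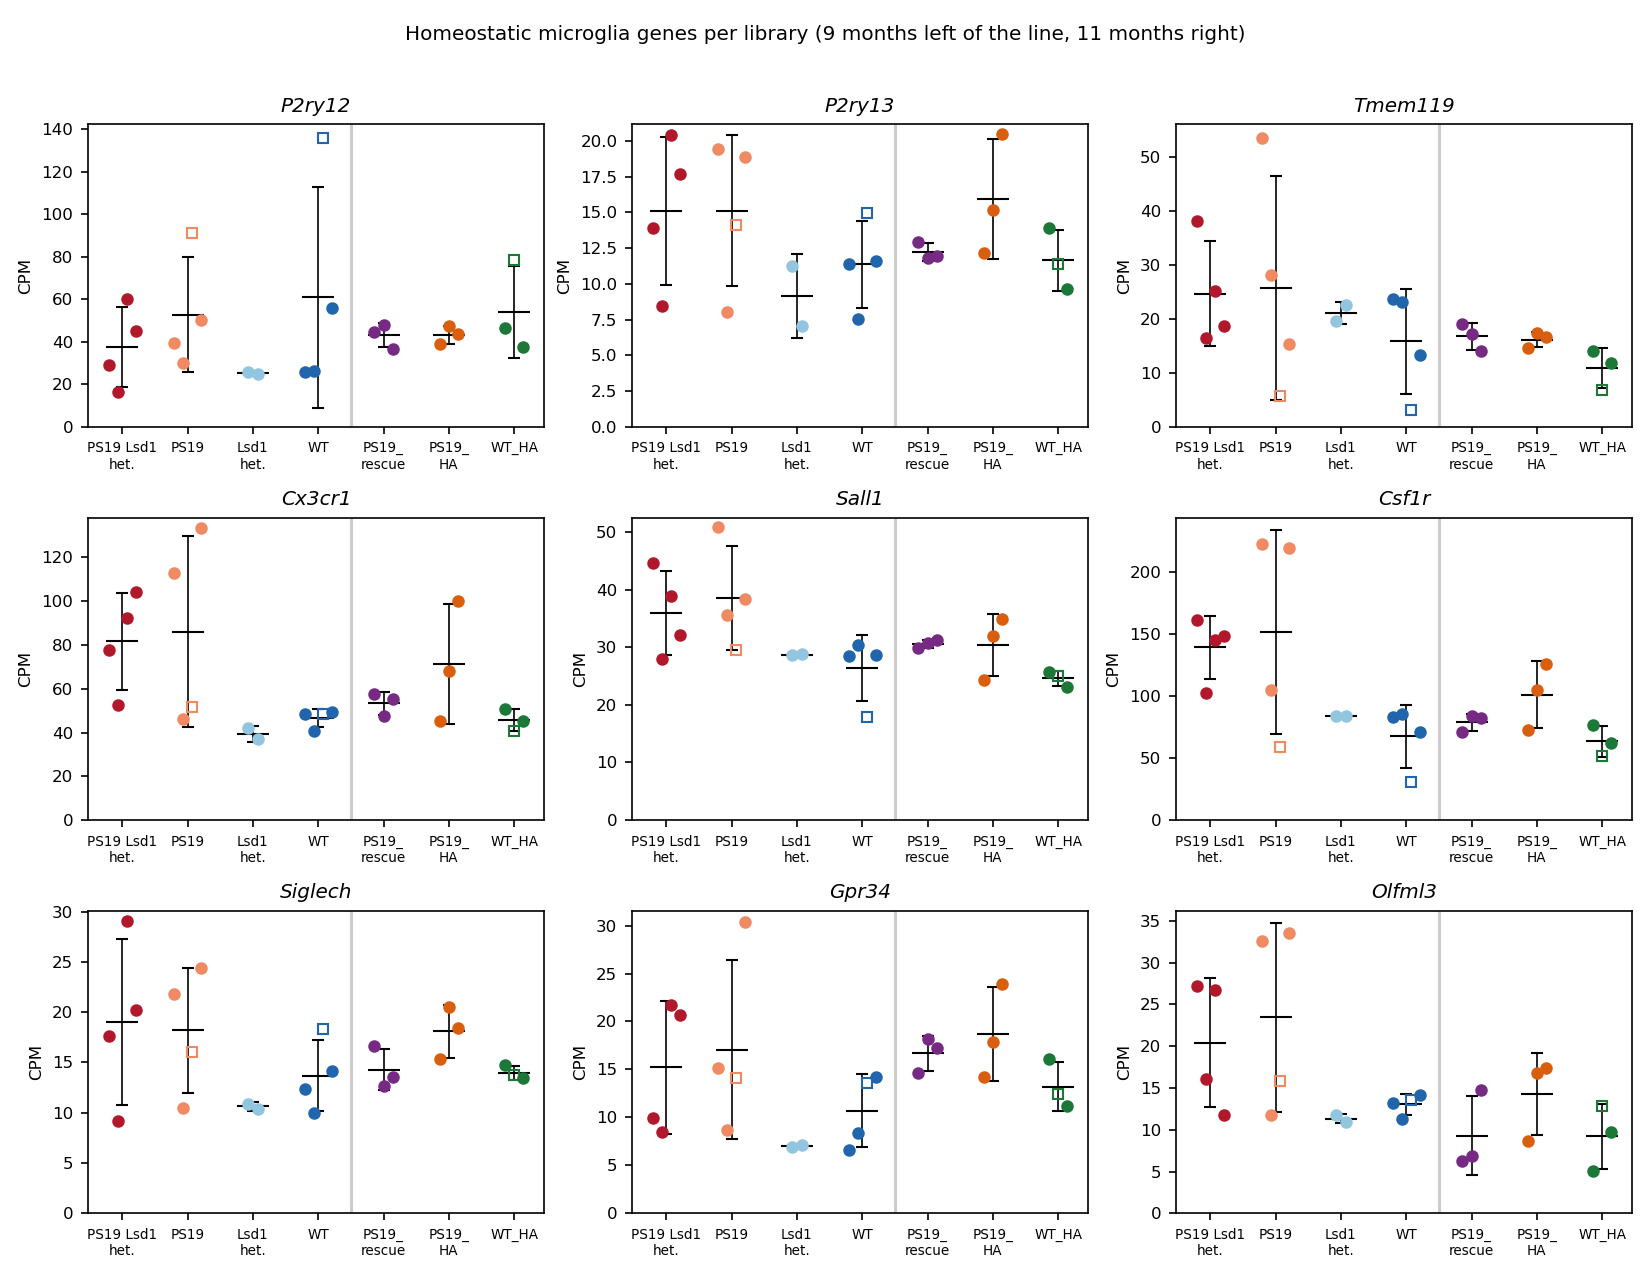
TMM-scaled CPM of each gene in every library (circles; open squares are the 3 libraries with a mitochondrial share above 16%), with the group mean and SD (black); PS19 groups stand left of their wild-type groups, and the grey line divides 9 months from 11 months. P2ry12 is highest in the open squares, at 136 CPM in WT replicate 3, while Tmem119 is lowest in them, and the high Csf1r and Cx3cr1 values are those of PS19 replicates 1 and 4.

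Across the tau comparison, 8 of the 9 genes averaged higher in transgenic than in wild-type hippocampus in both cohorts, and P2ry12 averaged lower in both. Of all genes tested, 46.5% had a log2 difference above 0 at 9 months and 50.5% at 11 months. Csf1r had the largest log2 difference at 9 months, while at 11 months Csf1r (0.67), Cx3cr1 (0.65) and Olfml3 (0.64) were close to each other beside SEs of at least 0.207, and Olfml3 came first without WT_HA replicate 2 (0.95, against 0.54 for Csf1r). The median log2 difference of the 9 genes was 0.67 for PS19 against WT and 0.50 for PS19_HA against WT_HA, beside -0.02 and 0.00 over all genes tested. Tested one gene at a time by edgeR's quasi-likelihood test with Benjamini-Hochberg adjustment over all genes, none of the 9 was called in either cohort. The test called 0.00497% of all genes at 9 months and 0.0156% at 11 months, so it called almost nothing, and DESeq2 called 0.958% and 0.628% of genes with none of the 9 among them. Without PS19 replicate 2 edgeR called 146 genes at 9 months, and without WT_HA replicate 2 or 3 it called 0 at 11 months. At an unadjusted p under 0.05, 4 of the 9 were higher at 9 months, as were 3.45% of all genes, and 5 of the 9 at 11 months, as were 5.91%.

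Csf1r encodes the receptor for CSF1 and IL-34 on which microglia depend for survival. It stood at 223, 105, 59.1 and 219 CPM in PS19 replicates 1 to 4, against 83.4, 85.4, 30.7 and 71.2 CPM in WT replicates 1 to 4. Replicates 1 and 4 of PS19 were far above every WT library, replicate 2 was above them by less, and replicate 3 lay among them. Against the WT library of the same number, each PS19 library was higher in Csf1r, as in Tmem119, Cx3cr1, Sall1, Gpr34 and Olfml3, a pattern that 10.8% of all genes shared. The log2 difference was 1.16 (SE 0.402, 2.24-fold, adjusted p = 0.664 by edgeR), with 1.00 (SE 0.385) within replicates 1 and 2 and 1.44 (SE 0.65) within replicates 3 and 4. At 11 months Csf1r stood at 72.3, 105 and 126 CPM in PS19_HA, against 76.6, 52.0 and 62.2 CPM in WT_HA. PS19_HA replicate 1 lay within the WT_HA range and the other two above it. There the log2 difference was 0.67 (SE 0.207, 1.59-fold, adjusted p = 0.46 by edgeR). Exons of Csf1r share 873 bases with Hmgxb3 on the opposite strand, and the strand setting of the counting is not given in the sources used here, so some of its counts could belong to that gene.

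Sall1 encodes a transcription factor that in the brain marks microglia among the macrophages and holds them in the homeostatic state. It had 50.9, 35.5, 29.5 and 38.5 CPM in PS19, against 28.5, 30.4, 17.9 and 28.7 CPM in WT. At 11 months it had 24.4, 31.9 and 34.9 CPM in PS19_HA, against 25.6, 25.1 and 23.2 CPM in WT_HA. All but the lowest library of each transgenic group exceeded every library of the wild-type group. Its log2 differences, 0.55 (SE 0.226) and 0.30 (SE 0.136), were smaller than those of Csf1r at both ages (adjusted p = 1 and 0.59 by edgeR), and were 0.36 without PS19 replicate 1 and 0.19 without PS19_HA replicate 3.

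Cx3cr1 encodes the receptor for fractalkine, a chemokine that neurons display. Its levels were 113, 46.2, 51.7 and 133 CPM in PS19, against 48.4, 40.7, 48.3 and 49.3 CPM in WT. WT libraries were tightly grouped, and PS19 split into the same high pair, replicates 1 and 4, as for Csf1r. The log2 difference was 0.88 (SE 0.326, adjusted p = 0.81 by edgeR), again 0.88 within replicates 1 and 2 and 0.92 within replicates 3 and 4. At 11 months the levels were 45.4, 68.3 and 100 CPM in PS19_HA, against 50.7, 40.6 and 45.3 CPM in WT_HA. Here too PS19_HA replicate 1 lay within the wild-type range, and the log2 difference was 0.65 (SE 0.245, adjusted p = 0.529 by edgeR), and 0.31 without PS19_HA replicate 3. That library, the highest in Cx3cr1 and Csf1r at 11 months, stood apart in other markers: hippocampal subfield markers summed to 181.8 CPM in it and to 601.5 and 600.5 CPM in PS19_HA replicates 1 and 2, and T cell markers to 14.24 CPM, beside 3.17 and 4.47 CPM. Low subfield markers were shared by replicate 3 of the other groups at 11 months, at 362.6 CPM in WT_HA and 354.8 CPM in PS19_rescue, the lowest of each group. Striatal markers were highest in replicate 3 of each of these groups, at 206.4 CPM in PS19_HA, 324.9 CPM in WT_HA and 287.3 CPM in PS19_rescue. The part of these differences in the microglial genes of PS19_HA replicate 3 was not tested.

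Tmem119 encodes a membrane protein widely used to tell microglia from other macrophages. PS19 libraries held 53.6, 28.2, 5.63 and 15.3 CPM, against 23.7, 23.2, 3.13 and 13.4 CPM in WT libraries. Each PS19 library stood above the WT library of the same number, yet both groups ran over a wide range and overlapped. The log2 difference was 0.69 with an SE of 0.625, the largest SE of the 9 genes in this comparison (adjusted p = 1 by edgeR), and ran from 0.018 (without PS19 replicate 1) to 1.05 (without PS19 replicate 3) with 1 library left out. At 11 months the 3 PS19_HA libraries, at 14.6, 17.3 and 16.6 CPM, lay above the 3 WT_HA libraries, at 14.1, 6.81 and 11.8 CPM. That log2 difference was 0.56 (SE 0.238, adjusted p = 0.569 by edgeR), and 7.82% of all genes tested were likewise higher without overlap. Without WT_HA replicate 2, the library of high mitochondrial share, it was 0.32 (SE 0.152).

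Siglech, a sialic acid-binding lectin of microglia, was the other gene whose PS19_HA libraries, at 15.3, 20.5 and 18.4 CPM, all exceeded those of WT_HA, at 14.7, 13.8 and 13.4 CPM. Its log2 difference there was 0.37 (SE 0.149, adjusted p = 0.554 by edgeR). At 9 months it stood at 21.8, 10.5, 16.1 and 24.4 CPM in PS19, against 12.4, 9.99, 18.3 and 14.1 CPM in WT, and the groups overlapped (log2 difference 0.62 without the libraries of high mitochondrial share). Gpr34, a receptor for lysophosphatidylserine, ranged from 8.66 to 30.4 CPM in PS19 and from 6.64 to 14.2 CPM in WT, and from 14.2 to 23.9 CPM in PS19_HA and 11.1 to 16.0 CPM in WT_HA. Olfml3, a secreted olfactomedin-domain protein, ranged from 11.8 to 33.6 CPM in PS19 and 11.3 to 14.1 CPM in WT, with PS19 replicates 1 and 4 again the high pair. At 11 months Olfml3 ranged from 8.63 to 17.4 CPM in PS19_HA and from 5.07 to 12.8 CPM in WT_HA. The log2 differences at 9 and 11 months were 0.41 and 0.37 for Siglech, 0.67 and 0.50 for Gpr34, and 0.85 and 0.64 for Olfml3, and no adjusted p was under 0.554. With 1 library left out, Gpr34 reached down to 0.26 at 9 months (without PS19 replicate 4) and 0.27 at 11 months (without PS19_HA replicate 3), and Siglech to 0.27 at 9 months (without PS19 replicate 4). Olfml3 at 11 months was 0.34 without WT_HA replicate 1 and 0.95 without WT_HA replicate 2.

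P2ry12 and P2ry13 encode G protein-coupled receptors for ADP. P2ry12 is the sensor by which microglial processes find injured cells. P2ry13 stood at 19.5, 8.02, 14.2 and 18.9 CPM in PS19, against 11.4, 7.53, 15.0 and 11.6 CPM in WT, and at 12.2, 15.2 and 20.5 CPM in PS19_HA, against 13.9, 11.4 and 9.62 CPM in WT_HA. Like most of the set it averaged higher in both transgenic groups with overlap, at log2 differences of 0.41 (SE 0.341) and 0.45 (SE 0.206), which were 0.25 without PS19 replicate 1 and 0.23 without PS19_HA replicate 3.

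P2ry12 differed from the other 8. It stood at 39.5, 29.9, 91.5 and 50.3 CPM in PS19, against 25.6, 26.1, 136 and 55.8 CPM in WT. It stood at 39.1, 47.5 and 43.7 CPM in PS19_HA, against 46.5, 78.6 and 37.5 CPM in WT_HA. The highest library of PS19, of WT and of WT_HA was each time the one with a high mitochondrial share, and the rest of the groups overlapped closely. The log2 difference was -0.21 (SE 0.549, adjusted p = 1 by edgeR) at 9 months and -0.32 (SE 0.247, adjusted p = 0.734 by edgeR) at 11 months. Without those 3 libraries the sign turned: the values were 0.15 (SE 0.421) and 0.05 (SE 0.142). Leaving out WT replicate 3 alone gave 0.54 (SE 0.461) at 9 months, and the fit with the replicate number as a block gave 0.00083 (SE 0.201). Within replicates 1 and 2 it was 0.45 (SE 0.292) and within replicates 3 and 4 it was -0.45 (SE 0.494). P2ry12 thus had no direction that held across these fits, and the part of the mitochondrial share in it was not tested.

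**Figure D2:**
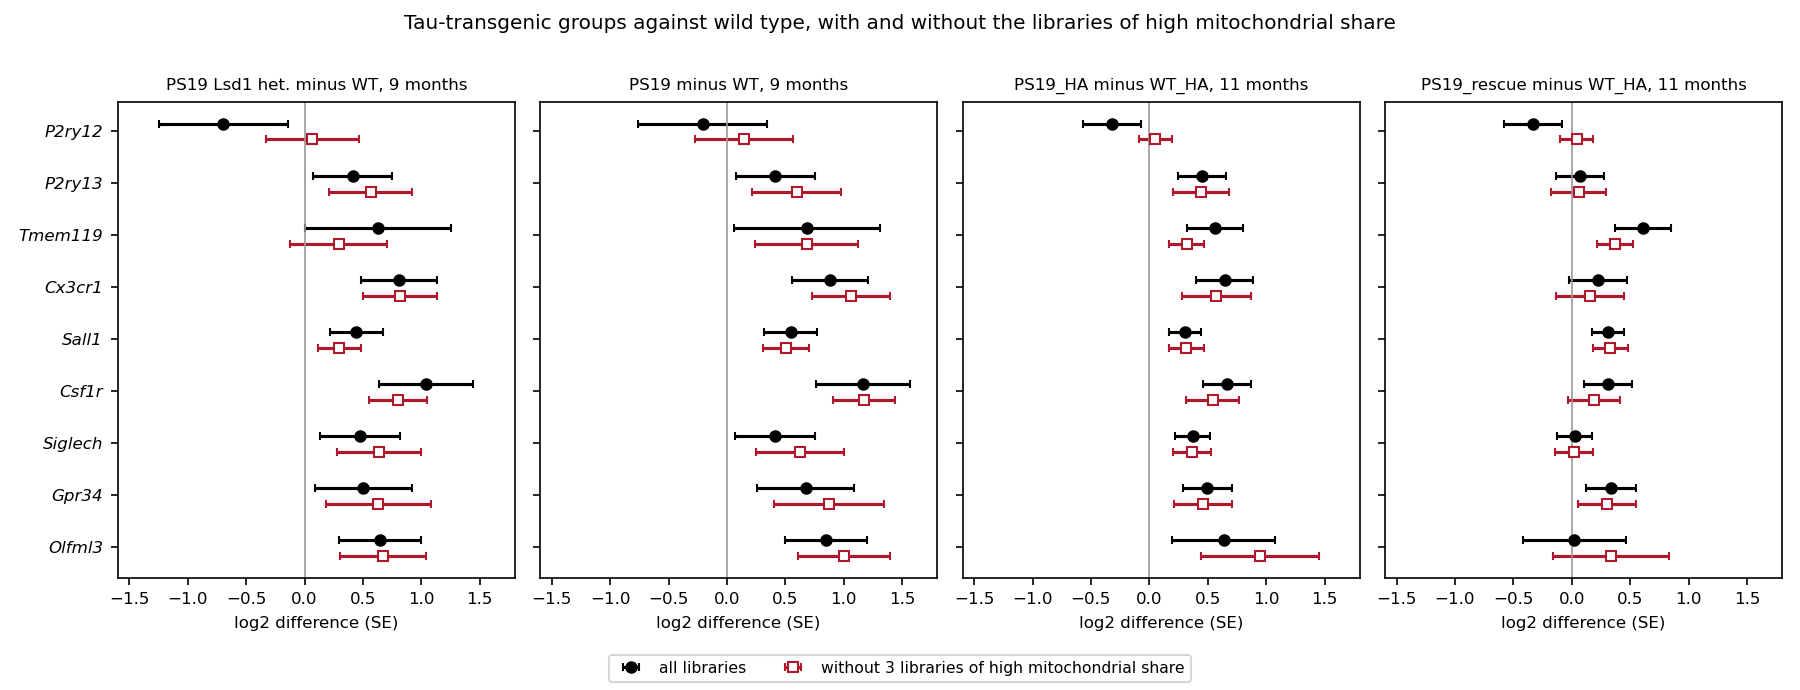
Log2 difference of each transgenic group from its wild-type group (edgeR, bars are SE) with all libraries (black circles) and without the 3 libraries of high mitochondrial share (red squares). P2ry12 lies left of 0 with all libraries in the 4 comparisons and at 0.04 to 0.15 without the 3 libraries, while Csf1r lies right of 0 in both fits of all 4.

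Averaged over the tau effects of both cohorts in 1 fit of 23 libraries, Csf1r had a log2 difference of 0.91 (SE 0.265, 1.88-fold) and Cx3cr1 one of 0.77 (SE 0.227, 1.70-fold). The edgeR adjusted p was 0.138 for Csf1r and 0.151 for Cx3cr1. Olfml3 followed at 0.74 (SE 0.29), Tmem119 at 0.63 (SE 0.406), Gpr34 at 0.59 (SE 0.271), P2ry13 at 0.44 (SE 0.225), Sall1 at 0.43 (SE 0.147) and Siglech at 0.39 (SE 0.218). P2ry12 was at -0.26 (SE 0.357), and at 0.10 (SE 0.268) without the 3 libraries of high mitochondrial share. In this fit edgeR called 0.994% of all genes and none of the 9, while DESeq2 called 2.02% and Csf1r among the 9 (adjusted p = 0.0411). Csf1r also passed edgeR without the 3 libraries of high mitochondrial share (0.86, SE 0.19, adjusted p = 0.0469) and without PS19 replicate 3 (1.04, adjusted p = 0.0256). Cx3cr1 passed without PS19 replicate 2 (0.87, adjusted p = 0.0357). Over all 21 fits run, the adjusted p ranged from 0.0256 to 0.411 for Csf1r and from 0.0357 to 0.474 for Cx3cr1. At an unadjusted p under 0.05, 5 of the 9 were higher, as were 6.44% of all genes. The tau effect at 11 months minus that at 9 months lay between -0.50 (Csf1r) and 0.03 (P2ry13), and no gene of all those tested differed between the cohorts by edgeR or DESeq2 (0.569% of genes at an unadjusted p under 0.05, none of them among the 9). With the replicate number as a block edgeR called 463 genes in place of 208, and the adjusted p was 0.0607 for Csf1r and 0.0688 for Cx3cr1. Leaving out 1 library at a time gave 28 genes (without WT_HA replicate 3) to 406 genes (without PS19 replicate 2).

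Summed over the 9 genes, levels ran from 284 to 569 CPM in PS19 and from 243 to 297 CPM in WT, and from 246 to 402 CPM in PS19_HA and 224 to 263 CPM in WT_HA. Leaving out the libraries of high mitochondrial share was chosen after seeing the data. The sums were then 284 to 569 CPM in PS19 and 243 to 272 CPM in WT (n = 3 each). These ranges did not overlap, but no share of all genes is given beside this. With all libraries, WT replicate 3, at 297 CPM, was above PS19 replicate 2, at 284 CPM. The sums give most weight to the genes of highest level. Without the same libraries, sums were 246 to 402 CPM in PS19_HA and 224 to 263 CPM in WT_HA. PS19_HA replicate 1 lay among the wild-type values.

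Whether the genes moved in step was asked with the ratio of each to Csf1r within a library, which does not depend on the library scaling. The 4 PS19 and 3 PS19_HA libraries were set against the 4 WT and 3 WT_HA libraries, with labels permuted within cohort (1400 permutations, two-sided, smallest possible p 0.00143). All 8 ratios averaged lower in the tau groups, by 0.20 (Olfml3) to 0.98 (P2ry12) on the log2 scale. None passed with all 14 libraries: the exact p was 0.0686 for Sall1, 0.174 for P2ry12 and between 0.176 and 0.576 for the other 6. Adjusted over all genes by limma, p ran from 0.139 to 0.618 over the 8 ratios, and 0.0239% of all genes were called. Without the 3 libraries of high mitochondrial share the ratio of P2ry12 differed by -0.69 and that of Sall1 by -0.43, both with an exact permutation p of 0.02 among 8 ratios computed. Without PS19 replicate 3 alone, 4 of the 8 had an exact permutation p under 0.05, with P2ry12 at 0.0243, P2ry13 at 0.0329, Sall1 at 0.00286 and Siglech at 0.03. A lower ratio shows unequal change and not which of the 2 genes moved. Csf1r was itself chosen as the denominator with its level known, and it had the largest mean tau effect of the 9 (0.91). A lower mean in all 8 ratios therefore follows from that choice and is not a separate result. The p-values of the ratios carry the same choice.

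In the 9-month Lsd1 groups, no difference of the 9 genes between PS19 Lsd1 heterozygotes and PS19 passed the test. The log2 differences ran from -0.49 (P2ry12, SE 0.55) to 0.06 (Siglech, SE 0.343). Without the library labelled replicate 3, whose Kdm1a was at the WT level, Siglech was at -0.22 (SE 0.341) and P2ry12 at -0.80 (SE 0.582), and all 9 were lower than in PS19. Replicate 2 was the lowest library of its group in all of the 9 but Olfml3. Its hippocampal subfield markers summed to 178.5 CPM, beside 645.0, 360.7 and 557.5 CPM in replicates 1, 3 and 4. The 19 other homeostatic microglia genes went the other way, at 1061 CPM in replicate 2, beside 725.5, 706.9 and 730.2 CPM. Without replicate 2, Siglech was at 0.28 and P2ry13 at 0.18 against PS19. The part of tissue make-up in these values was not tested. Of all genes, edgeR called 0% (1.25% had an unadjusted p under 0.05, none of them among the 9) and DESeq2 0.00502%, again none of the 9. The SEs of 0.225 to 0.621 leave room for sizeable differences either way. Against WT, Csf1r stood at 162, 103, 145 and 148 CPM in PS19 Lsd1 heterozygotes, beside 83.4, 85.4, 30.7 and 71.2 CPM in WT, and Cx3cr1 at 77.6, 52.7, 92.3 and 104 CPM, beside 48.4, 40.7, 48.3 and 49.3 CPM. For both genes every PS19 Lsd1 heterozygote exceeded every WT library, as held for 3.49% of all genes. Their log2 differences from WT were 1.04 (SE 0.401, adjusted p = 0.729 by edgeR) for Csf1r and 0.81 (SE 0.326, adjusted p = 0.775) for Cx3cr1, and 1.03 and 0.75 without the library labelled replicate 3 whose Kdm1a was at the WT level. Without that library Siglech was at 0.20 in place of 0.47, Gpr34 at 0.29 in place of 0.50, P2ry13 at 0.24 in place of 0.41 and P2ry12 at -0.99. Leaving out replicate 2 instead gave 0.70 for Siglech, 0.70 for Gpr34 and 0.61 for P2ry13. P2ry12 had 29.2, 16.4, 60.0 and 45.1 CPM in PS19 Lsd1 heterozygotes, a log2 difference from WT of -0.70 (SE 0.551) that became 0.07 (SE 0.395) without WT replicate 3 and PS19 replicate 3. At an unadjusted p under 0.05, 2 of the 9 genes were higher than in WT, as were 4.28% of all genes, while edgeR called 0.00497% and DESeq2 0.552% with none of the 9 among them. The remaining 6 genes stood between 0.41 and 0.64 above WT on the log2 scale, with overlap. Tmem119, at 0.63, was at 0.29, and Sall1, at 0.44, at 0.30, without the libraries of high mitochondrial share. PS19 and its Lsd1 heterozygotes share their WT libraries, so the 2 sets of values against WT are not independent.

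Lsd1 heterozygotes without tau had only 2 libraries. Their Csf1r read 83.8 and 83.9 CPM, within the WT range of 30.7 to 85.4 CPM, and their P2ry12 read 26.0 and 24.9 CPM, beside 25.6 to 136 CPM in WT. The log2 differences from WT ran from -1.27 (P2ry12, SE 0.713) to 0.40 (Tmem119, SE 0.752), and that of P2ry12 was -0.51 without WT replicate 3. None of the 9 was called by edgeR, which called 0% of genes (1.28% at an unadjusted p under 0.05, none of them among the 9), or by DESeq2, which called 0.00502%.

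At 11 months, PS19_rescue had a mean between those of PS19_HA and WT_HA in 6 of the 9 genes, as it did in 42.5% of all genes. Csf1r had 71.1, 83.7 and 82.2 CPM in PS19_rescue, beside 72.3, 105 and 126 CPM in PS19_HA and 76.6, 52.0 and 62.2 CPM in WT_HA. Cx3cr1 had 57.4, 47.5 and 55.1 CPM in PS19_rescue, beside 45.4, 68.3 and 100 CPM in PS19_HA and 50.7, 40.6 and 45.3 CPM in WT_HA. PS19_rescue libraries lay close together for both genes, and lay within the range of PS19_HA for Cx3cr1, while for Csf1r the lowest PS19_rescue library was just under it. The 9 genes summed to 273 to 277 CPM in PS19_rescue, to 246 to 402 CPM in PS19_HA and to 224 to 263 CPM in WT_HA. The log2 difference of PS19_rescue from PS19_HA was -0.35 (SE 0.206) for Csf1r, -0.42 (SE 0.244) for Cx3cr1, -0.38 (SE 0.206) for P2ry13, -0.35 (SE 0.149) for Siglech and -0.61 (SE 0.439) for Olfml3. Without PS19_HA replicate 3 it was -0.16 for Csf1r, -0.088 for Cx3cr1 and -0.16 for P2ry13, and without PS19_rescue replicate 3 it was -1.13 for Olfml3. With all libraries it was -0.16 (SE 0.211) for Gpr34, and between -0.0089 and 0.050 for P2ry12, Sall1 and Tmem119. None was called (edgeR called 0% of genes and DESeq2 0.0156%). Siglech alone had an unadjusted p under 0.05, as did 1.19% of all genes in the lower direction.

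Against WT_HA, Sall1 was higher in every PS19_rescue library, at 29.9, 30.7 and 31.3 CPM against 25.6, 25.1 and 23.2 CPM in WT_HA (log2 difference 0.31, SE 0.137, adjusted p = 0.864 by edgeR). Of all genes, 5.79% were higher without overlap in this comparison, and edgeR called 0.0207% and DESeq2 0.0992%, none of them among the 9. At an unadjusted p under 0.05, 2 of the 9 were higher, as were 2.33% of all genes. Tmem119 had 19.1, 17.2 and 14.1 CPM in PS19_rescue, against 14.1, 6.81 and 11.8 CPM in WT_HA, so that the groups met at 14.1 CPM. Its log2 difference was 0.61 (SE 0.238, adjusted p = 0.864 by edgeR), and 0.37 (SE 0.152) without WT_HA replicate 2. The other genes lay between -0.33 (P2ry12) and 0.34 (Gpr34), and Siglech and Olfml3 at 0.02. Without WT_HA replicate 2 P2ry12 was at 0.043 (SE 0.142), Olfml3 at 0.33 (SE 0.497), Csf1r at 0.19 and P2ry13 at 0.058. PS19_rescue and PS19_HA share the WT_HA libraries in these comparisons.

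Levels per kilobase of exon set different genes only roughly side by side. The length covers all annotated exons and can exceed the longest transcript, as for Siglech (3383 against 2301 bases), so the order of genes is approximate. On this scale Csf1r and P2ry12 held the highest 2 mean levels in 6 of the 7 groups, and in 5 of 7 without the libraries of high mitochondrial share. The exception is then PS19, with Cx3cr1 at 21.6 ± 10.1 CPM per kb and P2ry12 at 15.7 ± 4.02 CPM per kb (SD, n = 3). In PS19 Lsd1 heterozygotes Csf1r, at 24.1 ± 4.40 CPM per kb, was followed by Cx3cr1, at 18.1 ± 4.94 CPM per kb (SD, n = 4). P2ry12 had the highest mean level in WT, at 23.9 ± 20.5 CPM per kb, beside 11.7 ± 4.40 CPM per kb for Csf1r, but the SD of P2ry12 was nearly as large as its mean, which was 14.1 CPM per kb without WT replicate 3. Olfml3 was the lowest of the 9 in every group, at 3.80 ± 1.83 CPM per kb in PS19 and 2.12 ± 0.199 CPM per kb in WT (SD, n = 4 each). Neighbours in the middle of the order, such as Gpr34 and Sall1 in WT at 5.13 ± 1.81 and 5.01 ± 1.09 CPM per kb, differed by less than their spread.

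The 3 libraries of high mitochondrial share set P2ry12 and Tmem119 apart from each other. Against the mean of the other libraries of its group, P2ry12 was higher by 1.23 on the log2 scale in PS19 replicate 3, by 2.02 in WT replicate 3 and by 0.91 in WT_HA replicate 2. In the same libraries Tmem119 deviated by -2.32, -2.60 and -0.91, and Csf1r by -1.54, -1.37 and -0.41. Genes of the same cells thus moved in opposite directions in 1 library. Over 23 libraries, centred within cohort, P2ry12 and Tmem119 had a Pearson r of -0.69, and of -0.03 over the 20 others. This is a description of libraries that share groups, and carries no test.

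**Figure D3:**
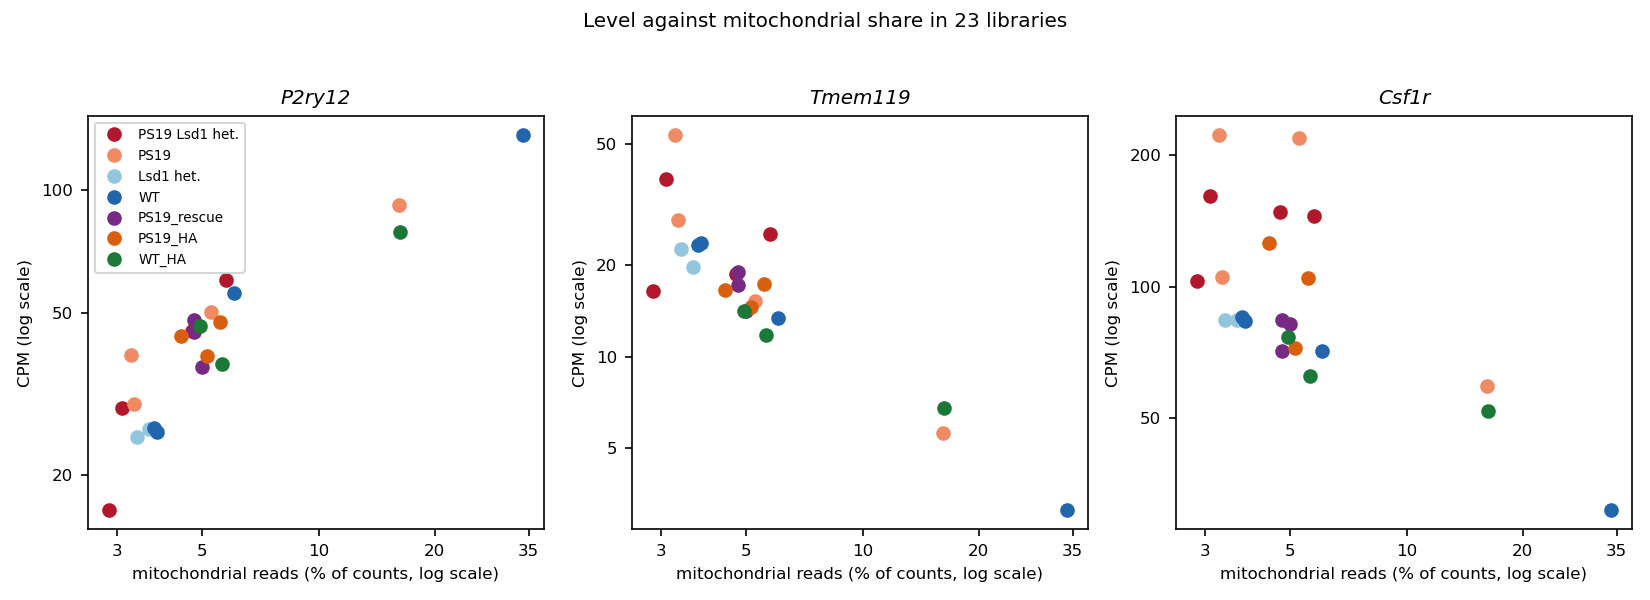
TMM-scaled CPM of P2ry12, Tmem119 and Csf1r against the percentage of counts in mitochondrial genes, 1 point per library, colour by group, both axes logarithmic. The 3 points beyond 16% of mitochondrial reads are the 3 highest of P2ry12 (78.6 to 136 CPM) and the 3 lowest of Tmem119 (3.13 to 6.81 CPM) and of Csf1r (30.7 to 59.1 CPM).

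The same 9 genes differ in base composition. The longest annotated transcript has 37.1% GC in Gpr34, 38.6% in P2ry12, 44.7% in P2ry13, 45.5% in Siglech, 50.3% in Cx3cr1, 51.6% in Sall1, 52.4% in Olfml3, 54.5% in Csf1r and 59.1% in Tmem119. P2ry12 thus lies below 40.9%, the value under which 10% of genes tested lie, and Tmem119 above 57.8%, the value over which 10% lie. Over the 9 genes the deviation of a library from its group had a Spearman correlation with GC content of -0.85 in PS19 replicate 3, -0.83 in WT replicate 3 and -0.45 in WT_HA replicate 2. Over 16170 genes it was -0.74, -0.76 and -0.41, the same sign as for the 9 genes. These are correlations across genes in 1 library, and genes are not replicates. Gpr34, the gene lowest in GC, deviated by only -0.17, 0.55 and -0.10 in the 3 libraries.

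**Figure D4:**
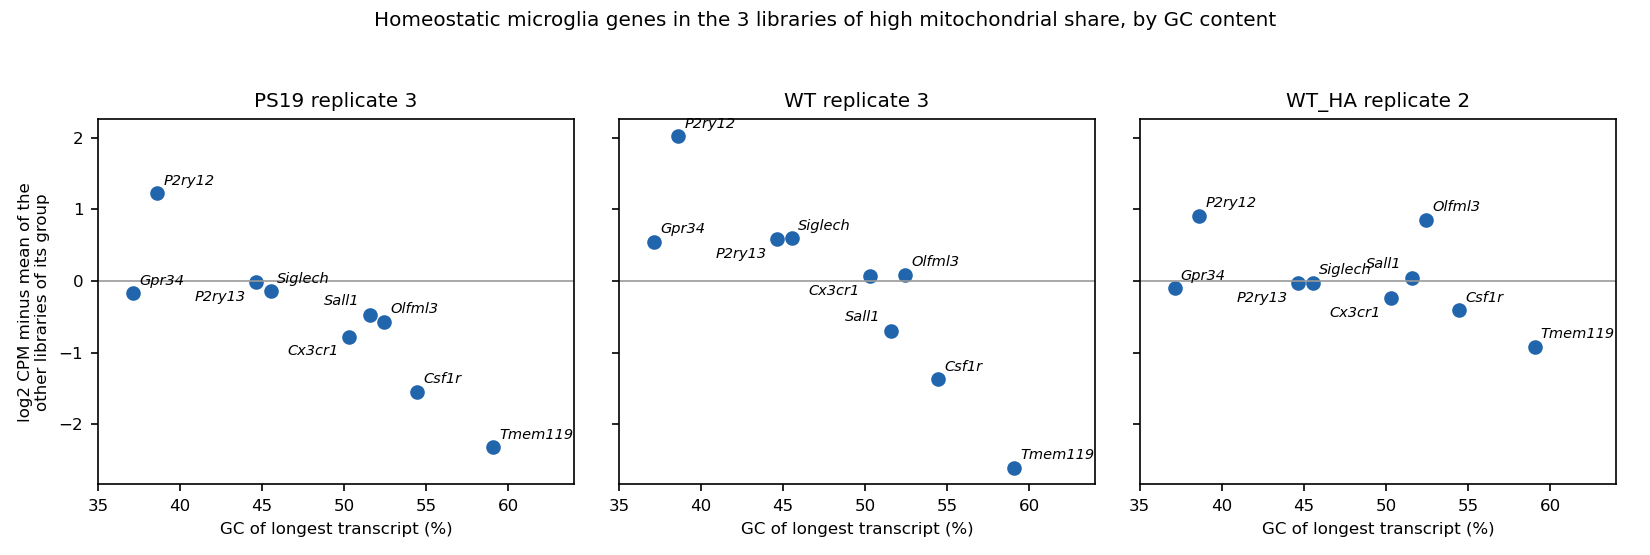
Log2 CPM of each gene minus the mean of the other libraries of its group, in the 3 libraries of high mitochondrial share, against the GC percentage of its longest transcript. P2ry12 is the highest point in each panel (1.23, 2.02 and 0.91) and Tmem119 the lowest (-2.32, -2.60 and -0.91).

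The 2 sets of 9-month libraries differed in P2ry12 as well. The 6 libraries numbered 3 or 4 held 45.1 to 136 CPM of P2ry12 and the 6 numbered 1 or 2 held 16.4 to 39.5 CPM, with no overlap, a pattern that 15% of all genes tested shared in that direction. The ranges of the other 8 genes overlapped between the sets. Gpr34 was 0.98 higher and Tmem119 1.37 lower in the libraries numbered 3 or 4 on the log2 scale.

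Pairs of the 9 genes moved together to different degrees over the 23 libraries. P2ry13 and Siglech had a Pearson r of 0.92, Sall1 and Csf1r of 0.90, and Cx3cr1 and Csf1r of 0.79, which was 0.93 over the 20 libraries without the 3. Outside the set, the gene whose log2 CPM was most like that of Csf1r over the 23 libraries was Inpp5d (r = 0.98), that of Cx3cr1 was most like Entpd1 (0.94), that of Tmem119 like Mfng (0.95) and that of Sall1 like Zmynd15 (0.93). P2ry13 was most like Cd33 (0.94), Siglech like Gldn (0.92), Gpr34 like Tgfbr1 (0.95) and Olfml3 like Casp8 (0.88). P2ry12 was most like Diaph2 (0.96). These likenesses to genes outside the set were computed only with the 3 libraries of high mitochondrial share included. Within the set, the Pearson r of P2ry12 and Csf1r was -0.38 over 23 libraries and 0.41 over 20, while that of P2ry13 and Siglech was 0.92 over both. The part of these libraries in the likenesses was not tested.

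Other genes of the same cells and pathways gave the frame for these values, in the mean tau effect of both cohorts. Of 19 other homeostatic microglia genes 17 were higher, at a median log2 difference of 0.62, close to the 0.59 of the 9, and edgeR called none of them and DESeq2 4. Of 13 ligands, partners and regulators of the 9 genes, 8 were higher and edgeR called 5, all higher, beside 48.8% of all genes higher and 0.994% called. Tyrobp, the adaptor that carries the signals of several microglial receptors, rose by 1.82 (SE 0.341, adjusted p = 0.0147). Irf8, a transcription factor of microglia, rose by 1.49 (adjusted p = 0.018), Tgfbr2, a TGF-beta receptor, by 0.90 (adjusted p = 0.0329), and Csf1, a ligand of Csf1r, by 0.88 (adjusted p = 0.0219).

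Genes that microglia share with other macrophages and the disease-associated genes had larger differences. All 15 shared genes were higher, 9 of them called by edgeR, at a median of 1.58. Ly86 rose by 1.655 (adjusted p = 0.00778 by edgeR) and Ctss, a lysosomal protease, by 1.61 (adjusted p = 0.00833). C1qb, a complement subunit, rose by 1.75 (adjusted p = 0.0158) and Lyz2, lysozyme, by 3.25 (adjusted p = 0.0171). All 20 disease-associated genes were higher, 9 of them called, at a median of 1.59. Cst7, a cystatin, rose by 5.74 (adjusted p = 0.00143), Itgax, an integrin, by 5.58 (adjusted p = 0.00281) and Clec7a, a receptor for beta-glucans, by 5.25 (adjusted p = 0.00492). Cybb rose by 3.235 (adjusted p = 0.00778 by edgeR). Every member of the homeostatic set lay below both of these medians. These lists were set beside each other by counts and medians, and the difference between lists was not tested.

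Markers of other cells are given beside these values. All 10 oligodendrocyte markers were higher in each cohort and in the mean tau effect, at a median of 0.62 beside the 0.59 of the 9 genes, and edgeR called none of them and DESeq2 1. Their summed level ran from 5505 to 7216 CPM in PS19 and from 4015 to 5287 CPM in WT, and from 4784 to 6549 CPM in PS19_HA and from 2691 to 4955 CPM in WT_HA. Markers of hippocampal subfields were higher in 2 of 8 (median -0.16, none called). Of 10 markers of perivascular and other brain macrophages 9 were higher in the mean tau effect, at a median of 0.36, and edgeR called none and DESeq2 1. By cohort, 9 of 9 tested were higher at 9 months, at a median of 0.96, and 4 of 8 tested at 11 months, at a median of -0.02, where the homeostatic set had 0.67 and 0.50. The summed level of these macrophage markers ran from 16.4 to 79.2 CPM in PS19 and from 12.6 to 33.95 CPM in WT, and from 16.6 to 35.9 CPM in PS19_HA and from 14.3 to 29.8 CPM in WT_HA. Of 10 markers of blood monocytes and neutrophils 7 were tested, and 5 of these were higher, at a median of 0.71, with none called by edgeR or DESeq2. The 7 summed to at most 3.68 CPM in PS19 and 3.06 CPM in WT, and 6.76 CPM in PS19_HA and 3.71 CPM in WT_HA. The neutrophil marker Ly6g, singled out after its values were seen, had no read in PS19, PS19 Lsd1 heterozygotes or PS19_HA and at most 1 in any other library. Of 10 T cell markers 6 were tested, and 5 of these were higher, at a median of 1.28, with none called by edgeR or DESeq2. The 6 summed to at most 4.26 CPM in PS19 and 3.85 CPM in WT, and 14.2 CPM in PS19_HA and 3.75 CPM in WT_HA. All 10 astrocyte markers were higher (median 0.35), and Gfap rose by 2.19 (adjusted p = 0.00492), while all 10 neuronal markers were lower (median -0.22) and edgeR called none. Choroid plexus markers, which come from tissue beside the hippocampus, were higher in 7 of 7 (median 1.66, none called), from 288 to 2298 CPM in PS19 and 69.2 to 2117 CPM in WT, and from 387 to 3580 CPM in PS19_HA and 40.5 to 946 CPM in WT_HA. Striatal markers were lower in 6 of 6 (median -1.11, none called). The part of these cells and of dissection in the values of the 9 genes was not tested.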

How the data were processed

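Poly(A) RNA of 23 hippocampal libraries was counted per gene, and groups and replicate numbers came from the sample titles. The authors deposited raw whole-number counts, in 1 file for each library. Per the submitters' processing notes, FastQC 0.11.7, Trimmomatic 0.36.5, HISAT2 2.1.0, featureCounts 1.6.0.6 and DESeq2 2.11.40.2 were used on GRCm38. The sources used here do not give the annotation release, strand setting or rule for reads with several alignments, so counts of overlapping genes are uncertain. Symbols, coordinates and exon lengths came from GENCODE M21, which matched 54165 of 54232 identifiers. The 67 others held 0.0184% of reads and stayed in the library sizes.

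Counts were tested with edgeR 4.0.16 (TMM, robust quasi-likelihood, filterByExpr with minimum count 10 and minimum total 15), in 1 fit for the 14 libraries at 9 months (20122 genes), 1 for the 9 at 11 months (19290 genes) and 1 for all 23 (20931 genes), with adjusted p under 0.05 as the call. The mean tau effect averages PS19 minus WT and PS19_HA minus WT_HA. Log2 CPM used a prior count of 2, errors of CPM are SDs over libraries, and ratios were tested by exact permutation and limma 3.58.1. DESeq2 1.42.0 was the second tool. Totals of 15451494 to 24644977 counts set the counting error, which the fitted dispersion includes. The edgeR, limma and permutation steps were tested on simulated data. The alternatives were other size factors, no filter, a replicate block, library sizes without mitochondrial genes, library sets, sex and leaving out each library. For the ratios they were also either cohort alone and a prior count of 0.5, and a planned second denominator is not reported here. Leaving out the 3 libraries of high mitochondrial share was chosen after seeing the data.

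The same replicate numbers occur in several groups. Libraries with 1 number counted as paired where the deviations of every same-numbered pair from the group means correlated above 0.1 across genes, a pairing that comes from the data and not from the labels. The correlations were 0.5 to 0.82 for PS19 and WT, 0.31 to 0.54 for PS19 Lsd1 heterozygotes and WT, 0.3 to 0.48 for PS19 Lsd1 heterozygotes and PS19, 0.11 to 0.3 for PS19_HA and WT_HA, and 0.12 to 0.47 for PS19_rescue and WT_HA. In the same order, 4 of 4, 2 of 4, 0 of 4, 3 of 3 and 2 of 3 libraries correlated best with the library of their own number. The rule can therefore be met where libraries of the same number are not the most alike.

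The 9 genes and the marker lists were chosen with earlier results of these data known. Named in the text are the 9 genes in every comparison, Kdm1a and Prnp as label checks, up to 4 called genes of a list by lowest p, and for each of the 9 the 1 other gene most correlated with it. Ly6g was named after its values were seen.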

Additional observations from a re-analysis of the deposited data

Results flagged for a closer look

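Of 27 groups of 4 libraries tested, 9 genes in 3 groups each, 2 held a library far from the other 3 by Dixon's criterion, which chance meets in about 1 in 20 groups. Sall1 in WT had its lowest library, replicate 3, at 17.91 CPM, below 28.5 to 30.4 CPM in the other 3. WT replicate 3 is the library with 33.9% mitochondrial reads. Cx3cr1 in WT had its lowest library, replicate 2, at 40.68 CPM, below 48.3 to 49.3 CPM in the other 3.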

How the results depend on the processing

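Among the 9 genes, no alternative took away a call, since edgeR made none. Outside the left-out libraries, 561 values kept their direction and side of the threshold, 22 turned sign and 2 passed it, both for Csf1r in the mean tau effect (DESeq2, 0.90, adjusted p = 0.0411; without the 3 libraries of high mitochondrial share, 0.86, adjusted p = 0.0469).

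With the replicate block, no call of the 9 genes changed. In 5 comparisons the block met the correlation rule for pairing, though not every library was most like that of its own number. Genes called with the block were 5 for PS19 against WT and 4 for PS19 Lsd1 heterozygotes against WT, beside 1 and 1 without it. For PS19_rescue against WT_HA they were 0 and for the mean tau effect 463, beside 4 and 208 without it. It turned P2ry12 for PS19 against WT (0.00083), Tmem119 (0.37) and Csf1r (0.067) for PS19 Lsd1 heterozygotes against PS19, and Tmem119 between the cohorts (0.016). The numbers did not pair Lsd1 heterozygotes with WT or PS19_rescue with PS19_HA.

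Genes called by DESeq2 were 191 for PS19 against WT, 110 for PS19 Lsd1 heterozygotes against WT, 1 against PS19, 1 for Lsd1 heterozygotes against WT, 121 for PS19_HA against WT_HA, 18 and 3 for PS19_rescue against WT_HA and against PS19_HA, and 421 for the mean tau effect. No filter gave 9, 2 and 5 for PS19 against WT, PS19 Lsd1 heterozygotes against WT and PS19_HA against WT_HA. The covariate for replicate sets gave 9 for PS19 against WT, and fits within either set gave 0 for both transgenic groups against WT. PS19_HA against WT_HA gave 0 with library sizes without mitochondrial genes, with a sex covariate and without the 3 libraries, and PS19_rescue against WT_HA gave 0 with the last 2. The cause was not tested.

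P2ry12 turned positive without the 3 libraries in PS19 against WT (0.15), PS19 Lsd1 heterozygotes against WT (0.067), PS19_HA (0.050) and PS19_rescue (0.043) against WT_HA, and the mean tau effect (0.10), and in PS19 against WT within replicates 1 and 2 (0.45). For PS19_rescue against PS19_HA it was 0.0011 with DESeq2's size factors and 0.0013 by DESeq2. The difference between cohorts of P2ry13 turned to -0.015 without a filter and -0.16 without the 3 libraries, and Sall1 in Lsd1 heterozygotes against WT to -0.0049 without them. For PS19 Lsd1 heterozygotes against PS19, Siglech turned to -0.29 within replicates 1 and 2. Within replicates 3 and 4, P2ry13 (0.20), Tmem119 (1.06), Cx3cr1 (0.086), Sall1 (0.061) and Csf1r (0.074) turned, and Tmem119 was 0.26 with the covariate for replicate sets. Of the 8 ratios to Csf1r, 2 passed an exact permutation p under 0.05 without the 3 libraries. The Olfml3 ratio was 0.015 at 11 months alone and 0.058 without the 3 libraries.

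Leaving out 1 library at a time, genes called ran from 1 to 146 for PS19 against WT, from 28 to 406 for the mean tau effect, from 0 to 8 for PS19_HA against WT_HA, from 0 to 3 for PS19_rescue against WT_HA and from 0 to 1 for PS19_rescue against PS19_HA. The mean tau effect had its lowest count without WT_HA replicate 3 and its highest without PS19 replicate 2, which also gave the 146 for PS19 against WT. Of the ratios, 0 to 4 passed, 4 of them without PS19 replicate 3, and the Olfml3 ratio ran from -0.41 to 0.0077. Values of single genes that turned in at least 1 such fit ran as follows. In PS19 against WT these were P2ry12 (-0.59 to 0.54). In PS19 Lsd1 heterozygotes against WT these were P2ry12 (-0.99 to 0.044). In Lsd1 heterozygotes against WT these were Sall1 (-0.031 to 0.21). In the mean tau effect these were P2ry12 (-0.46 to 0.086). In the difference between cohorts these were P2ry12 (-0.88 to 0.24), P2ry13 (-0.19 to 0.20), Tmem119 (-0.51 to 0.52), Cx3cr1 (-0.57 to 0.055), Siglech (-0.23 to 0.13), Gpr34 (-0.40 to 0.26) and Olfml3 (-0.50 to 0.061). In PS19 Lsd1 heterozygotes against PS19 these were P2ry13 (-0.21 to 0.18), Tmem119 (-0.42 to 0.61), Cx3cr1 (-0.28 to 0.18), Sall1 (-0.23 to 0.084), Csf1r (-0.40 to 0.15), Siglech (-0.22 to 0.28), Gpr34 (-0.39 to 0.24) and Olfml3 (-0.42 to 0.034). In PS19_HA against WT_HA these were P2ry12 (-0.53 to 0.050). In PS19_rescue against WT_HA these were P2ry12 (-0.54 to 0.043), P2ry13 (-0.054 to 0.22), Siglech (-0.090 to 0.10) and Olfml3 (-0.49 to 0.33). In PS19_rescue against PS19_HA these were P2ry12 (-0.089 to 0.088), Tmem119 (-0.044 to 0.16), Sall1 (-0.12 to 0.13) and Gpr34 (-0.32 to 0.065).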
